A study of Gallus gallus with 12 samples.

Results

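The 200 transcripts described here were bright on every array of the developing chick lung and moved least between arrays. They were chosen by their measured values. Of 21390 transcripts on the array, 6267 had a mean between 12 and 15 on the log2 scale over the 12 arrays, and the 200 of these with the lowest SD over the 12 arrays were kept. They are called stable bright transcripts below, and the 6067 bright transcripts that were not kept are called the other bright transcripts. Whole lungs of untreated white leghorn embryos were taken at E14, E15, E16 and E18 (E, embryonic day), with 3 biological replicates at each stage and 1 array for each. Whether a replicate was 1 embryo or a pool is not given in the sources used here. The lowest SD and the bounded mean are what the choice used, so the level, the spread and the slopes of these transcripts on the same arrays are given as a description, and no test on them counts as evidence of stability. From E14 to E18 the 200 each stayed within a 1.29-fold range over the 12 arrays, with a median slope near 0, and they lay between 12.08 and 14.98 in mean level. Low spread on the 12 arrays as deposited is what the rule asked for, and which transcripts met it depended on the arrays, the scaling and the measure of spread. Of the 200, 68 were chosen again without E18 replicate 3, 69 after median centring of the arrays, 97 after quantile normalization, 42 after cyclic loess and 59 by the median absolute deviation in place of the SD.

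In the embryo, most cells keep a core of transcripts at a high level whatever their type. These include the messages for ribosomal proteins, for the cytoskeleton and for energy metabolism, and they serve as references in expression studies because they are taken to hold their level while tissues mature. In the last week before hatching the chick lung forms air capillaries and blood capillaries and the interstitium thins. The proportions of epithelial, endothelial and mesenchymal cells change. In RNA of a whole lung, a transcript with a steady value can thus have the same level in all cells or opposite changes in different cells, and fewer cells of a type and less RNA per cell cannot be told apart. The deposited values carry Ensembl transcript identifiers without gene names, and the gene table used here holds 0 of these identifiers, so the transcripts are given by identifier and neither their functions nor the usual reference genes among them were analysed here. For the same reason the identity of the tissue could not be checked against its marker genes.

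A few facts of the arrays bear on all values below. Array medians lay between 10.56 and 10.76, but the SD of all transcripts on an array ran from 2.22 to 2.62. It was lowest on E18 replicate 3, at 2.22, followed by 2.38 on E18 replicate 2 and 2.44 on E15 replicate 3. The 3 replicates of a stage limit the precision, and the random-sequence control read between 4.40 and 5.17, far below the stable bright transcripts.

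The mean level of the stable bright transcripts ran from 12.08 to 14.98, with a median of 13.75 and quartiles of 12.94 and 14.21. On single arrays their values lay between 11.91 and 15.15, where the whole table reached 15.98. Their SD over the 12 arrays ran from 0.039 to 0.0929, with a median of 0.083, while the other bright transcripts had a median SD of 0.222. The lowest and the highest array of a stable bright transcript were 0.27 log2 units apart at the median, a 1.21-fold difference, and 0.37 at most, a 1.29-fold difference. For the other bright transcripts the median distance was 0.78.

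Above a level of 8, spread was smaller the brighter the transcripts were, and the choice followed this. The median SD was 0.72 for transcripts with a mean between 7 and 8, 0.256 between 12 and 13, 0.195 between 13 and 14 and 0.143 between 14 and 15. Among bright transcripts with a mean between 12 and 12.5, 19 of 1828 were chosen, which is 1.04%. Between 14.5 and 15 it was 28 of 202, or 13.9%. Of the 200 stable bright transcripts, 81 had a mean between 14 and 15, 66 between 13 and 14 and 53 between 12 and 13. Once chosen, they had nearly the same spread at every level, with a median SD between 0.081 and 0.084 in each band of 0.5 log2 units. The same upper limit of SD held in every band, so this follows in large part from the choice.

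**Figure D1:**
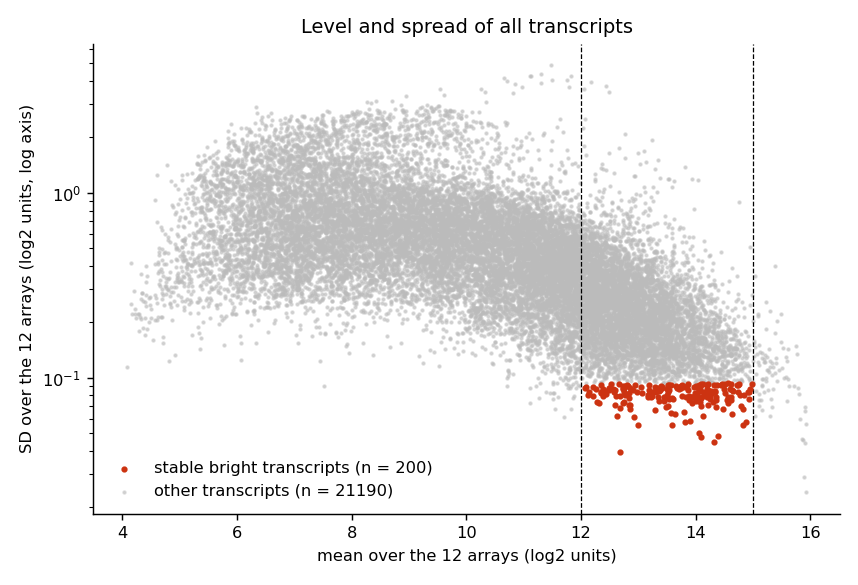
Mean over the 12 arrays (x axis, log2 units) against SD over the 12 arrays (y axis, log2 units on a log axis) for each of 21390 transcripts, with the 200 stable bright transcripts in red and dashed lines at means of 12 and 15. The red points fill the lower edge between the lines, with SDs from 0.039 to 0.0929, and their share of the transcripts rises with level.

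The transcript with the lowest SD was ENSGALT00000007264. It read 12.76, 12.66 and 12.66 at E14, 12.63, 12.68 and 12.68 at E15, 12.68, 12.70 and 12.62 at E16, and 12.73, 12.69 and 12.65 at E18. All 4 stages overlapped, its SD was 0.039, and its highest array was 1.10-fold above its lowest. The brightest of the 200, ENSGALT00000022035, was at 14.96 ± 0.065 (SD, n = 3) at E14, 15.09 ± 0.055 at E15, 14.98 ± 0.052 at E16 and 14.90 ± 0.087 at E18. Its lowest array was E18 replicate 3, at 14.81, and its highest E15 replicate 1, at 15.15. The dimmest, ENSGALT00000021101, was at 12.05 ± 0.043 (SD, n = 3) at E14, 12.08 ± 0.086 at E15, 12.11 ± 0.083 at E16 and 12.07 ± 0.154 at E18. The arrays of E18 spread most in this transcript, from 11.91 on replicate 2 to 12.22 on replicate 1, and covered the values of all other stages.

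The edge of the choice was not a gap. The last transcript kept, ENSGALT00000027571, had an SD of 0.09288 and the first left out, ENSGALT00000002947, one of 0.09303. The 3 arrays of ENSGALT00000027571 at E18 read 14.46, 14.46 and 14.42, below 5 of the 6 arrays of E15 and E16 by more than 0.1 log2 units. The 3 arrays of ENSGALT00000002947 at E18 read 13.57, 13.56 and 13.33, so that 1 array, E18 replicate 3, stood apart from the others of its stage.

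The drift with embryonic day was taken as the least-squares slope over days 14, 15, 16 and 18. The slopes of the stable bright transcripts ran from -0.046 to 0.043 log2 units per day, with quartiles of -0.017 and 0.010 and a median of -0.0043. Slopes were above 0 in 91 and below 0 in 109 of the 200. The other bright transcripts leaned further down, with a median slope of -0.059 and 74.3% of slopes below 0. Without E18 replicate 3 their median slope was -0.024, with 3790 of 6067 slopes below 0. Low SD bounds the slope by construction, so the narrower range of slopes among the 200 follows from the choice.

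Between the ends of the series, the 200 were a median of 0.015 log2 units lower at E18 than at E14 (E18 minus E14, -0.0145), with quartiles of -0.071 and 0.045. The other bright transcripts had a median difference of -0.231, and of -0.098 without E18 replicate 3. The largest difference among the 200 was -0.185, a 1.14-fold difference, and 155 of them, 77.5%, lay within 0.1 log2 units of no difference. Among the other bright transcripts 15.2% did. Step by step, the median difference of the 200 was 0.0086 for E15 minus E14, -0.0028 for E16 minus E15 and -0.023 for E18 minus E16. The stage with the highest mean was E14 in 55 transcripts, E15 in 53, E16 in 52 and E18 in 40. The stage with the lowest mean was E14 in 57, E15 in 30, E16 in 32 and E18 in 81. These counts include E18 replicate 3, which held the lowest single value of 64 of the 200, and were not repeated without it. Stage means stood in ascending order of age in 11 transcripts and in descending order in 18. Such stage counts were not taken over other transcripts, so nothing is read from them. E18 was below E14 in 114 of the 200, in 4508 of the 6067 other bright transcripts and in 12783 of all 21390.

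**Figure D2:**
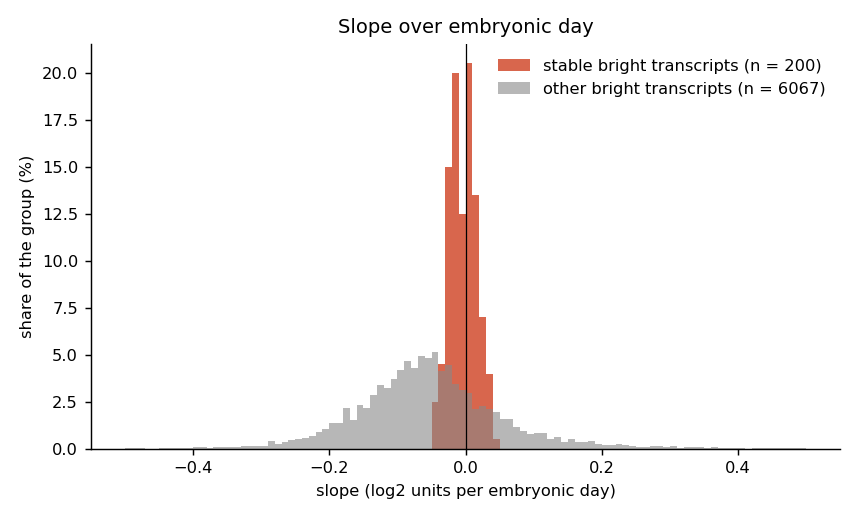
Slope over embryonic day (x axis, log2 units per day) as a share of each group (y axis, %), for the 200 stable bright transcripts in red and the 6067 other bright transcripts in grey, of which 38 lie outside the plotted range. The red slopes lie between -0.046 and 0.043 on either side of 0, while 74.3% of the grey ones lie below 0.

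Limma fitted a mean per stage to all 12 arrays and tested all 21390 transcripts with Benjamini-Hochberg adjustment. The F-test across the 4 stages called 4.41% of all transcripts at an adjusted p of at most 0.05 and 0 of the 200. Between E18 and E14 it called 6.83% of all transcripts as higher at E18 and 12.6% as lower, and 0 of the 200 in either direction. The slope over embryonic day was called positive in 12.4% and negative in 20.9% of all transcripts, and in 0 of the 200. Without adjustment, 0 of the 200 had a limma p under 0.05 in any of these tests, and the smallest adjusted p between E18 and E14 was 0.18. The F-test without moderation that the methods name had an unadjusted p under 0.05 in 15 of the 200, or 7.5%, against 22.9% of all transcripts, and called 0 of them after adjustment. The counts among the 200 are fixed in large part by the choice and nothing is read from them. The number called over all transcripts also turned on single arrays, while 0 of the 200 were called in each case. Across the stages it was 943 with all arrays, 8558 without E18 replicate 1, 1122 without E18 replicate 3, 891 without E15 replicate 3 and 224 without E18 replicate 2. Leaving out each remaining array in turn gave 268 to 588. Between E18 and E14 it was 4155 with all arrays, 11895 without E18 replicate 1, 4927 without E15 replicate 3, 3596 without E18 replicate 3 and 1480 without E18 replicate 2. It was 945 to 1081 when an array of E14 was dropped and 2480 to 2867 when one of the remaining arrays was. For the slope it was 7111 with all arrays, 11354 without E18 replicate 1 and 3000 without E18 replicate 2, with 4083 to 8408 for the other arrays dropped singly. The counts among the 200 further depend on how limma pools the spread. The residual SD of the 200 had a median of 0.080 and was raised to 0.137 by moderation towards a prior SD of 0.273, so that a difference between E18 and E14 of less than 0.25 log2 units could not reach an unadjusted p of 0.05 at the median standard error of 0.111.

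Separation of the replicates was seen in a few transcripts. In 10 of the 200, or 5%, the 3 arrays at E18 all lay above the 3 at E14, against 15.7% of all transcripts, with differences from 0.073 to 0.174. In 15 of the 200, or 7.5%, they all lay below, against 28.2% of all transcripts, with differences from -0.185 to -0.065. Both shares were below those of all transcripts, and the choice of low SD limits them. In random order, 3 arrays against 3 separate fully in either direction with a probability of 0.1, so nothing is read from these counts.

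The transcripts at the ends of the drift are shown by array. ENSGALT00000004598 had the most positive slope, 0.043 log2 units per day, and read 12.92, 12.87 and 12.80 at E14, 12.80, 12.89 and 12.79 at E15, 12.84, 12.93 and 12.95 at E16, and 13.04, 13.03 and 12.96 at E18. All arrays at E18 were above all others. Its difference between E18 and E14 was 0.15 (standard error 0.10, adjusted p = 0.266 by limma). ENSGALT00000003064, with a slope of 0.039, read 14.21, 14.12 and 14.30 at E14, 14.22, 14.41 and 14.36 at E15, 14.38, 14.38 and 14.36 at E16, and 14.38, 14.41 and 14.37 at E18. Its values were level from E16 on, and its lowest array was E14 replicate 2. The difference between E18 and E14 was 0.17 (standard error 0.11, adjusted p = 0.216 by limma).

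ENSGALT00000022472 had the most negative slope, -0.046, with 12.20, 12.33 and 12.30 at E14, 12.33, 12.21 and 12.25 at E15, 12.11, 12.15 and 12.22 at E16, and 12.14, 12.06 and 12.12 at E18. All arrays at E18 were below all arrays at E14 and E15, but not below all at E16. Its slope was -0.011 after quantile normalization and 0.035 after cyclic loess, so the direction turned with the scaling. ENSGALT00000001597, with a slope of -0.045, read 13.63, 13.61 and 13.65 at E14, 13.64, 13.66 and 13.57 at E15, 13.51, 13.59 and 13.53 at E16, and 13.43, 13.59 and 13.36 at E18. The lowest array was E18 replicate 3, and without it the slope was -0.034. For the other 3 of these 4 transcripts the slope had the same sign in each of 15 settings, from 0.038 to 0.102 in ENSGALT00000004598, from 0.028 to 0.068 in ENSGALT00000003064 and from -0.060 to -0.0063 in ENSGALT00000001597.

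**Figure D3:**
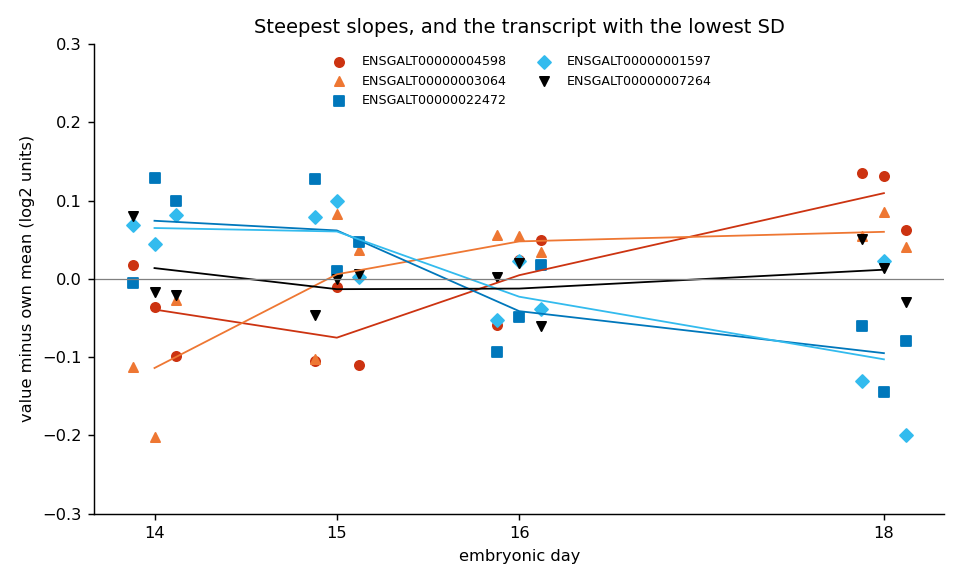
Value minus the transcript's own mean over the 12 arrays (y axis, log2 units) at embryonic days 14, 15, 16 and 18 (x axis) for the 4 transcripts with the steepest slopes and for ENSGALT00000007264, which had the lowest SD. Points are arrays and lines join the means of 3 arrays, and the point farthest from 0 is E14 replicate 2 of ENSGALT00000003064, at -0.202.

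The differences between arrays that remained in the stable bright transcripts were small and uneven. For each array, the deviation of a transcript is its value minus its own mean over the 12 arrays, and the median of the 200 deviations was taken. At E14 it was 0.0053, -0.0165 and -0.0050, and at E15 0.0053, -0.0022 and 0.0065. At E16 it was 0.0041, 0.034 and -0.0091, and at E18 0.040, -0.011 and -0.071. The arrays of E14 and E15 lay within 0.017 log2 units of 0, and the highest and lowest array of the series were replicates of the same stage, E18 replicate 1 and E18 replicate 3. They were 0.112 apart, a 1.08-fold difference, while the medians of the other bright transcripts spanned 0.481. The choice kept the lowest SD over these same arrays, so the smaller span of the 200 follows from it. The pooled SD of the array medians between replicates was 0.031.

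E18 replicate 3 stood apart most. Of the 200 transcripts, 153 were below their own mean on it and 64 had their lowest value there, where the 11 other arrays held the lowest value of 7 to 28 transcripts each. E18 replicate 1 held the highest value of 38 transcripts, and 158 of the 200 were higher on it than on E18 replicate 3. The largest deviation of a single array from the mean of its transcript was 0.226, in ENSGALT00000024553, which read 13.60 on E18 replicate 1 and between 13.26 and 13.44 on the 11 other arrays. E18 replicate 3 carried 16.2% of the sum of squared deviations of the 200 and 38.6% of that of the other bright transcripts, where an even share is 8.33%. The median deviation of the 200 on this array was between -0.085 and -0.048 in all bands of level, whereas that of the other bright transcripts was -0.54 between 12 and 12.5 and -0.185 between 14.5 and 15. The rule kept the lowest SD with this array included, so both contrasts follow from the choice and nothing is read from them. This array was also the one with the lowest SD over all transcripts.

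**Figure D4:**
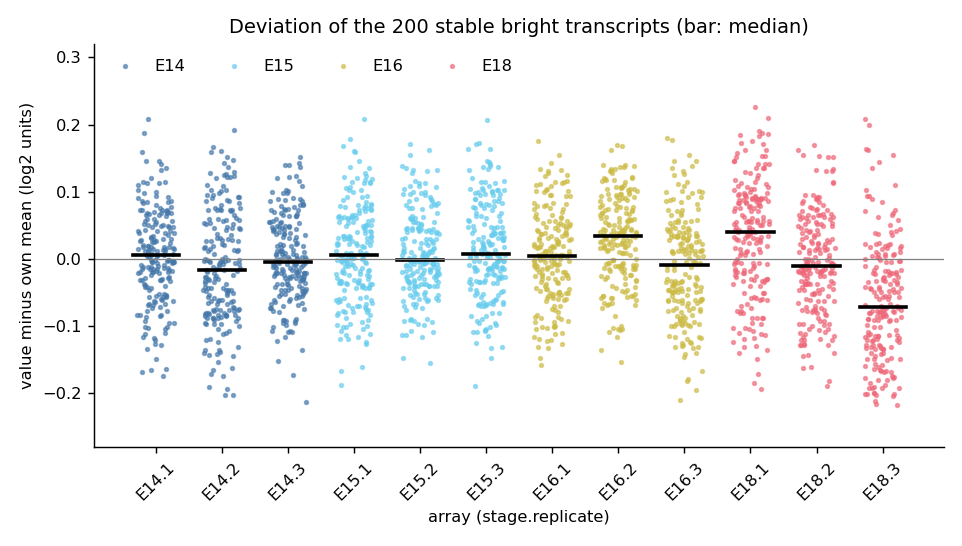
Deviation of each of the 200 stable bright transcripts from its own mean (y axis, log2 units) on each of the 12 arrays (x axis, stage and replicate), with a black bar at the median of each array. Medians lie between -0.071 on E18 replicate 3 and 0.040 on E18 replicate 1.

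Without E18 replicate 3, the median slope of the 200 was 0.0028 per day in place of -0.0043, with 110 slopes above 0 and 90 below, and the median difference between E18 and E14 was 0.013. On the deposited scale, the direction of the median drift thus rested on 1 array. Either value was within 0.01 log2 units per day of 0. The spread of the array medians was 0.056 without it.

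The spread of the 200 was divided into parts, and the choice of low SD limits how they compare with the other bright transcripts. Between-stage differences made up 30.3% of their sum of squares, where equal spread on all arrays would give 27.3%, and in the other bright transcripts it was 51.9%. A shift shared by all 200 on an array accounted for 8.92%, and removing the median of each array lowered the median SD from 0.083 to 0.078. The first principal component held 20.3% of the squares and set E18 replicate 3 (weight -0.80) against E18 replicate 1 (0.40). The second held 14.2%, with positive weights on the 3 arrays of E14 and on E15 replicates 1 and 2, from 0.179 to 0.387, and negative weights on the 3 of E18, from -0.55 to -0.32. In the other bright transcripts the first component held 54.4%. Within stages, the median SD of a stable bright transcript was 0.064 at E14, 0.063 at E15, 0.068 at E16 and 0.086 at E18. That of the other bright transcripts was 0.096 at E14, 0.115 at E15, 0.104 at E16 and 0.258 at E18. Of the 200, 0 shared identical values with another of them, and 1 pair among the 200 had consecutive identifiers.

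To measure steadiness on data that the choice had not used, 200 transcripts were chosen again by the same rule with 1 array left out, and their deviation on that array from their mean over the 11 others was taken. The deposited values come from a normalization that pools arrays, so an array left out was not wholly separate from the others. With any of the 11 other arrays left out, E18 replicate 3 stayed in both the choice and the mean. On it the other bright transcripts lay at a median of -0.398 from their mean over the 12 arrays. Its share in the differences below was not tested. On the 11 arrays other than E18 replicate 3, the median absolute deviation was between 0.053 and 0.098, against between 0.098 and 0.178 for the other bright transcripts. It was smaller for the chosen transcripts on all 12 arrays. By the medians over arrays, the gap was largest at a level of 12 to 13 and smallest at 14 to 15. In the brighter bands it nearly closed on some arrays. The median over arrays was 0.080 against 0.152 for the other bright transcripts at a level of 12 to 13, 0.074 against 0.128 at 13 to 14, and 0.071 against 0.104 at 14 to 15. Near ties were found at 14 to 15 on E15 replicate 3, with 0.103 against 0.104, and on E16 replicate 3, with 0.082 against 0.084, and at 13 to 14 on E16 replicate 2, with 0.089 against 0.095, and on E18 replicate 1, with 0.122 against 0.129. On E14 replicate 1 and E14 replicate 2, 1 chosen transcript each was more than 0.5 log2 units away, and on 9 further arrays 0 were. Between 162 and 178 of the 200 were chosen again when any 1 of these 11 arrays was left out.

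E18 replicate 3 differed from this. When it was left out of the choice, 68 of the 200 were chosen again. The 200 transcripts chosen without it deviated on it by a median of -0.307, with 182 below and 40 more than 0.5 log2 units away, and a median absolute deviation of 0.315 against 0.476 for the other bright transcripts. With all arrays of a stage left out, 131 were chosen again without E14, 144 without E15, 154 without E16 and 48 without E18. The stage mean that was left out differed from the mean of the other stages by a median absolute 0.067 at E14, 0.051 at E15, 0.051 at E16 and 0.147 at E18, against 0.156, 0.104, 0.082 and 0.279 for the other bright transcripts in the same order. At E18 the median deviation of the transcripts chosen on E14, E15 and E16 was 0.016 on replicate 1, -0.077 on replicate 2 and -0.352 on replicate 3. Transcripts that were steady over E14, E15 and E16 thus lay near their earlier mean on E18 replicate 1 and below it on E18 replicate 3.

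**Figure D5:**
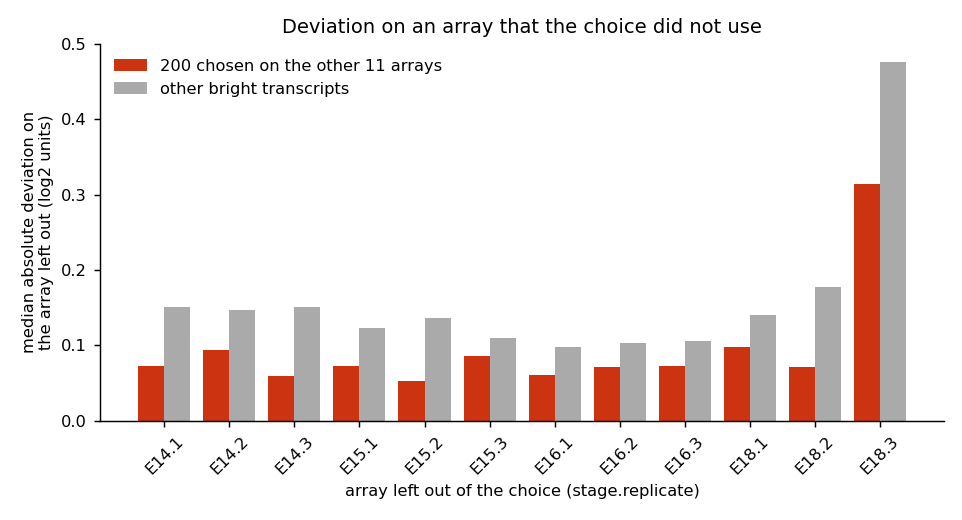
Median absolute deviation (y axis, log2 units) on the array left out of the choice (x axis, stage and replicate), for the 200 transcripts chosen on the 11 other arrays in red and for the other bright transcripts in grey. The red bar is the lower one on each array, and on E18 replicate 3 it reaches 0.315 against 0.476.

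The sign of the small drift of the 200 changed with the scale. It also changed on the deposited scale without E18 replicate 3. The rescaled values were not repeated without that array, so scale and array were not told apart. The median difference between E18 and E14 was -0.0145 as deposited, 0.110 after median centring, 0.049 after quantile normalization and 0.136 after cyclic loess, where all transcripts had one of -0.171 as deposited, -0.046 after median centring, -0.152 after quantile normalization and 0.0041 after cyclic loess. Median centring adds 1 constant to all values of an array and so moves the 200 and all other transcripts alike. As the 200 were chosen to lie near no difference on the deposited scale, their distance from the median of all transcripts follows from the choice, and nothing is read from it. The median percentile of the 200 among all transcripts of an array was between 93.7 and 94.7 on the 12 arrays, and that of the dimmest of them between 67.4 and 71.0 on 11 arrays and 73.7 on E18 replicate 3. Steady rank marked the same transcripts only in part. Of the 200, 57 were chosen again from the 6267 bright transcripts by the SD of the percentile rank.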

How the data were processed

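RNA of whole chick lung was copied into double-stranded cDNA, which was labelled and hybridized to custom NimbleGen arrays, 1 for each of 12 samples. The authors ran RMA on the scans (by its usual steps, background correction, quantile normalization across arrays and a summary of probes per transcript) and deposited the resulting log2 values. Quantile normalization draws the arrays together and can hide a shift shared by most transcripts. The deposited transcript values nevertheless differed in spread between arrays, as given above. Array analysis software is named as DNASTAR ArrayStar, and its version and the Ensembl release are not given in the sources used here. Samples were grouped by stage from their titles, and p-values measure only the spread between these samples. Values were used as deposited, without the random-sequence control. R 4.3.3 with limma 3.58.1 fitted a mean per stage, and separately a slope over day, to 21390 transcripts, with no filter on dim values. The fit was tested on simulated data with independent noise per transcript, which held no shift shared by the transcripts of an array. Python 3.11.15, numpy 2.4.6, pandas 2.3.3 and matplotlib 3.10.9 were used for all other values. Named transcripts are those at the ends of SD, mean, slope and deviation, and the first left out. Lists of reference genes and cell type markers could not be applied without gene names. The rule and the tests were chosen with earlier results of these data known. Alternatives were 3 normalizations, the variance model, a filter on dim transcripts, the replicate block, single arrays left out, other numbers kept, windows and measures of stability, the stages compared, stage rank in place of day, the one-way ANOVA and unadjusted p. Chosen after seeing the data were the scaling to the 200 transcripts and the choice by percentile rank.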

Additional observations from a re-analysis of the deposited data

How the results depend on the processing

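The count of stable bright transcripts called by limma across the stages was 0 in every setting run, including the replicate block, where it was also 0 for E18 against E14 and for the slope. The labels do not say that a replicate number marks a shared clutch or day. Deviations were correlated above 0.1 in 3 of 18 pairs of same-numbered arrays of different stages and in 15 of 36 differently numbered pairs. The correlations ran from -0.616 to 0.685 in the same-numbered pairs and from -0.715 to 0.701 in the others. Across the stages, 396 of all transcripts were called with the block and 943 without it. Between E18 and E14, 3 of the 200 were called after cyclic loess. The slope was called in 2 after median centring, 1 after quantile normalization and 14 after cyclic loess. The median slope was 0.025 after median centring, 0.0127 after quantile normalization, 0.0332 after cyclic loess and -0.0274 for the 200 with the lowest median absolute deviation, and ran from -0.0095 without E18 replicate 1 to 0.0028 without E18 replicate 3. The spread of the array medians was 0.172 after median centring, 0.253 after cyclic loess and 0.285 for the lowest median absolute deviation, and from 0.0564 without E18 replicate 3 to 0.116 with another array left out. The median SD was 0.114 for the lowest median absolute deviation. Of the 200, 69 were chosen again after median centring, 97 after quantile normalization, 42 after cyclic loess, 131 without the arrays of E14, 48 without those of E18, 59 by median absolute deviation, 90 by pooled SD within stages, 57 by the SD of the percentile rank, and from 68 without E18 replicate 3 to 178 with another array left out. The cause was not tested. The slope of ENSGALT00000022472 changed sign after cyclic loess, to 0.0352. Fewer or more transcripts kept, or a mean between 12 and 14, moved the spread of the array medians by less than 0.031. That is their pooled SD between replicates. The median slope was then between -0.0064 and -0.0023 per day.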

Other observations

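Transcripts of low SD were also found outside the window from 12 to 15. Of the 200 transcripts with the lowest SD in the whole table, 158 were stable bright transcripts and 42 lay outside the window, 25 of them with a mean above 15 and 17 with a mean below 12. The lowest SD of all, 0.024, belonged to a transcript with a mean of 15.93, where the highest value of the table was 15.98. The median SD of transcripts with a mean between 15 and 16 was 0.110.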
